A study of Mus musculus with 6 samples.

Results

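Notch receptors, their transcriptional target genes and the nuclear factors RBPJ and MAML1 were examined in a mouse B-cell line given FOG1. The set holds 10 genes, Notch1, Notch2, Notch3, Hes1, Hes5, Hey1, Dtx1, Nrarp, Rbpj and Maml1. They were found as the probe sets (groups of array probes read as a single value) for which the platform annotation gives exactly 1 symbol. All 10 were measured, by 11 of the 34760 probe sets and among 19937 genes named in this way, because Rbpj has 2 probe sets. The cells were of the line labelled 230-238, all of a single line. The GFP group (3 arrays) carried a plasmid encoding green fluorescent protein alone, and the GFP+FOG1 group (3 arrays) a plasmid encoding green fluorescent protein and FOG1. FOG1, the product of Zfpm1, is a cofactor of GATA transcription factors. Cells of both groups were kept 3 days after infection, sorted for green fluorescence and kept 4 more days before RNA was isolated without DNase treatment.

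Notch receptors are single-pass membrane proteins that are activated by ligands on neighbouring cells. Ligand binding leads to cleavage by ADAM proteases and then by gamma-secretase, which frees the intracellular domain. This domain enters the nucleus and joins RBPJ, a DNA-binding protein that otherwise recruits corepressors, together with a coactivator of the Mastermind-like family such as MAML1. In the blood system NOTCH1 directs early progenitors towards the T-cell and away from the B-cell fate, and NOTCH2 is needed for marginal zone B cells. Hes1, Hes5, Hey1, Dtx1 and Nrarp are well known targets of the pathway in various tissues.

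The promoter of Hes5 is shown because it carries the core recognition sequence of RBPJ, TGGGAA, on both strands. RefSeq promoter entries of build GRCm38.p6, spanning 250 bases before to 50 bases after the start of the gene, were found for 8 of the 10 genes, and not for Hes1 and Hey1. The Hes5 entry lies at chr4:154960673-154960972 on the plus strand. Capitals mark the letters TGGGAA or their reverse complement.
Hes5 promoter: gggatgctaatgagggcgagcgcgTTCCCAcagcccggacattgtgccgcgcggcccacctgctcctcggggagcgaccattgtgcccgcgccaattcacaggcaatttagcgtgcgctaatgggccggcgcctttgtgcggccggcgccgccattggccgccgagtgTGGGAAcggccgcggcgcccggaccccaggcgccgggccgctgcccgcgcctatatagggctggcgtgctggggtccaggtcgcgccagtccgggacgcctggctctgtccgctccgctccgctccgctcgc
The match on the opposite strand begins 226 bases before the start, and that on the strand of the gene begins 82 bases before it. Among the 8 genes, Hes5 and Rbpj had at least 1 match, and the windows of Notch1, Notch2, Notch3, Dtx1, Nrarp and Maml1 had 0. Matches on both strands were not particular to Hes5. An Rbpj entry had them too, beginning 149 bases before the start on the strand of the gene and 65 on the opposite strand. Of all 32851 promoter entries, 25.6% held the motif on either strand. A match of 6 letters is a description of these letters only, and binding was not measured.

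The values are log2 signals, as the authors deposited them, and a log2 change is the mean of the GFP+FOG1 arrays minus the mean of the GFP arrays. Pairs of arrays correlated at 0.9925 to 0.9960 over all probe sets. On the first principal component, which held 36.8% of the variance, GFP+FOG1 replicate 1 lay at 1.15, nearer to the GFP arrays (-16.1 to -11.4) than were replicates 2 and 3 (17.0 and 24.3). Zfpm1 was 9.41, 9.49 and 9.43 on the GFP arrays and 10.21, 10.16 and 10.17 on the GFP+FOG1 arrays. The log2 change was 0.74, or 1.67-fold higher (limma adjusted p = 0.00382). Its signal thus lay above the median of all values in both groups. The 10 measured B-lineage markers all lay at or above the median of all values (6.999), with an average level of 11.77 to 11.81 on the GFP arrays and 11.70 to 11.75 on the GFP+FOG1 arrays. Of 9 measured T-lineage markers 8 lay below that median, and none of the 9 passed the test. Of 7 myeloid markers 6 lay below it, and the integrin gene Itgam, with a log2 change of -1.11 (limma adjusted p = 0.00747), was the member that passed.

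None of the 10 Notch genes passed the test, which was limma with Benjamini-Hochberg adjustment over all probe sets and a threshold of 0.05. Over all probe sets 0.224% passed. At an unadjusted p under 0.05 there were 2 of the 10 genes, Hes1 and Notch2, against 12.5% of all probe sets. The same 2 genes had groups that did not overlap, both lower in GFP+FOG1 cells, where 19.6% of all probe sets were separated in either direction and 10.5% in this direction. The share of separated Notch genes therefore lay near that of the array as a whole. The log2 changes of the 10 genes ran from -0.34 to 0.11, with a median of 0.02, beside a median of -0.01 over all probe sets.

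**Figure D1:**
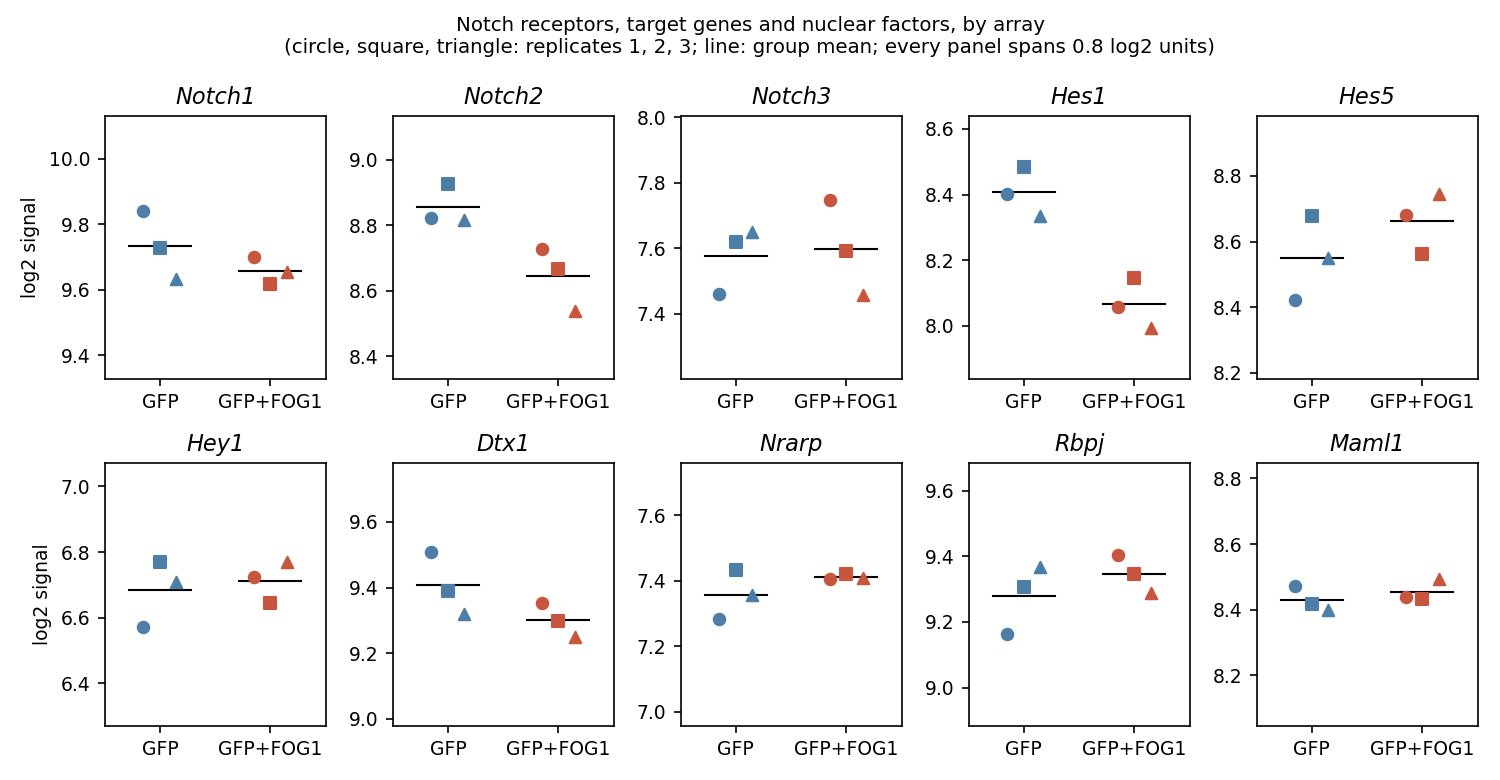
Log2 signal (vertical axis) of the 10 Notch genes on each of the 6 arrays, with GFP in blue and GFP+FOG1 in red, symbols for replicates 1 to 3 and a line at each group mean. All panels have the same vertical span, and the groups are separated for Hes1 and Notch2, both lower with FOG1, and overlap for the other 8 genes.

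Among the receptors, Notch2 had the largest difference. Its log2 signal was 8.82, 8.93 and 8.82 on the GFP arrays and 8.73, 8.67 and 8.54 on the GFP+FOG1 arrays. Each GFP+FOG1 array was lower than each GFP array, by at least the small gap between 8.82 and 8.73. The means were 8.85 ± 0.06 and 8.64 ± 0.10 (SD, n = 3 per group), a log2 change of -0.21 (SE 0.065) or 1.16-fold lower (limma adjusted p = 0.309). With the unadjusted 95% interval of -0.37 to -0.05, a fall of more than 1.29-fold lay outside the interval. Without GFP+FOG1 replicate 3, its lowest array, the log2 change was -0.16, and without replicate 1 it was -0.25.

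Notch1 was 9.84, 9.73 and 9.63 in GFP cells and 9.70, 9.62 and 9.65 in GFP+FOG1 cells. The groups overlapped, and GFP replicate 1 was the highest array. Its log2 change was -0.08 (SE 0.064, limma adjusted p = 0.647), with an unadjusted 95% interval from 1.17-fold lower to 1.06-fold higher. Without GFP replicate 1 the change was -0.02. Notch3, a receptor best known from vascular smooth muscle and pericytes, was 7.46, 7.62 and 7.65 in GFP cells and 7.75, 7.59 and 7.46 in GFP+FOG1 cells. Each group spanned much of the range of the other, and the log2 change was 0.02 (SE 0.089, limma adjusted p = 0.930). Its sign turned without GFP replicate 1 (-0.04) and without GFP+FOG1 replicate 1 (-0.05).

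Among the targets, Hes1 stood lowest relative to the GFP cells. Hes1 encodes a basic helix-loop-helix repressor of transcription. Its log2 signal was 8.40, 8.48 and 8.33 on the GFP arrays and 8.06, 8.14 and 7.99 on the GFP+FOG1 arrays. The groups were separated, and the spread inside each was less than the gap between them. The means were 8.41 ± 0.075 and 8.07 ± 0.076 (SD, n = 3 per group), and Hes1 was 1.27-fold lower (log2 change -0.34, SE 0.062). The unadjusted p was 0.00119, rank 278 of 34760 probe sets, and the limma adjusted p was 0.148, so the difference did not pass over the whole array. The unadjusted 95% interval was -0.49 to -0.19, and a fall of more than 1.41-fold lay outside it. Without each array in turn the log2 change stayed between -0.38 and -0.30.

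Hes5, a repressor of the same family whose promoter is printed above, had a log2 change of the opposite sign. Its values were 8.42, 8.68 and 8.55 in GFP cells and 8.68, 8.56 and 8.74 in GFP+FOG1 cells, and the groups overlapped. The log2 change was 0.11 (SE 0.082, limma adjusted p = 0.597), with an unadjusted 95% interval of -0.08 to 0.31. It was 0.0478 without GFP replicate 1 and 0.18 without GFP replicate 2. The intervals of Hes1 and Hes5 did not overlap, but the difference between these genes was not tested. Hey1, a related repressor, was 6.57, 6.77 and 6.71 in GFP cells and 6.72, 6.64 and 6.77 in GFP+FOG1 cells, and its level was below the median of all values. Part of such a dim signal can be background. Its log2 change was 0.03 (SE 0.067, limma adjusted p = 0.879), and -0.03 without GFP replicate 1.

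Dtx1 encodes the ubiquitin ligase Deltex1, a regulator of Notch signalling. Its values were 9.51, 9.39 and 9.32 in GFP cells and 9.35, 9.30 and 9.25 in GFP+FOG1 cells. Only GFP replicate 3 lay inside the range of the GFP+FOG1 arrays, so the groups overlapped at that array. The log2 change was -0.11 (SE 0.063, limma adjusted p = 0.519), and -0.06 without GFP replicate 1. Nrarp encodes an ankyrin repeat protein that feeds back on the Notch transcription complex. It was 7.28, 7.43 and 7.36 in GFP cells and 7.41, 7.42 and 7.41 in GFP+FOG1 cells. The GFP+FOG1 arrays were nearly level and lay inside the range of the GFP arrays, and the means differed by 0.05 log2 units (SE 0.052, limma adjusted p = 0.688). Over the 5 target genes the log2 change was thus below 0 for Hes1 and Dtx1 and above 0 for Hes5, Hey1 and Nrarp.

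Both nuclear factors overlapped between the groups. Rbpj, the DNA-binding partner, at the brighter of its probe sets, was 9.16, 9.31 and 9.37 in GFP cells and 9.40, 9.35 and 9.29 in GFP+FOG1 cells. Its log2 change was 0.07 (SE 0.067, limma adjusted p = 0.699), with an unadjusted 95% interval from 1.07-fold lower to 1.17-fold higher. It was 0.0093 without GFP replicate 1 and 0.13 when both probe sets were averaged. The second Rbpj probe set, which is annotated to a different transcript record and lay below the median of all values, was 6.29, 5.99 and 6.16 in GFP cells and 6.24, 6.53 and 6.27 in GFP+FOG1 cells. The difference there was 0.20 log2 units (SE 0.107, limma adjusted p = 0.488), and the groups overlapped too. Maml1, the coactivator, was 8.47, 8.42 and 8.40 in GFP cells and 8.44, 8.43 and 8.49 in GFP+FOG1 cells. With the smallest standard error of the 10 genes (0.046), its log2 change was 0.03 (limma adjusted p = 0.834). The unadjusted 95% interval allowed at most 1.06-fold lower or 1.10-fold higher.

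**Figure D2:**
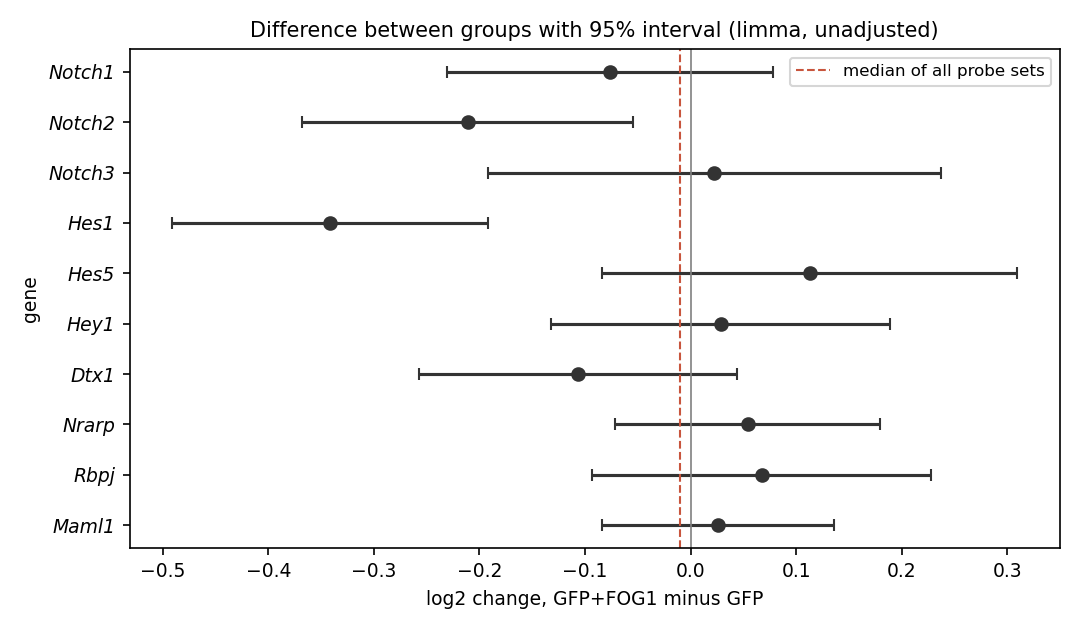
Log2 change of each Notch gene, GFP+FOG1 minus GFP (points), with the unadjusted 95% interval from limma (bars, 3 arrays per group), a grey line at 0 and a dashed line at the median of all probe sets (-0.01). The intervals of Hes1 (-0.49 to -0.19) and Notch2 (-0.37 to -0.05) lie below 0, and those of the other 8 genes include 0.

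The genes whose profile over the 6 arrays was most like that of Hes1 were Ptpn3, Pcdh9, Insr, Tagap and Rap1gap2. Likeness was the root mean square difference between profiles after each gene's own mean was taken away, over 11501 probe sets with 1 symbol and a mean at or above the median of all values. Ptpn3, a tyrosine phosphatase gene, was closest at 0.02 log2 units, at the brightest of its 12 probe sets, and the other 4 lay at 0.03 to 0.04. These genes were chosen for following Hes1, so their changes are a description. Insr, the insulin receptor gene, had a log2 change of -0.30 and Pcdh9, a protocadherin gene, of -0.36. Both values came from the dimmer of the gene's 2 probe sets. Tagap, a gene of a GTPase-activating protein, had -0.33 and Rap1gap2, of another such protein, -0.38. None of the 5 passed at the probe sets compared (limma adjusted p of 0.103 to 0.195).

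The further genes of the pathway were taken from 7 lists with 82 entries, of which 78 were measured and the others were not analysed here. None of the 78 passed (limma), where 0.224% of all probe sets passed. An unadjusted p under 0.05 was found for 7 of the 78, against 12.5% of all probe sets. Their median log2 change was -0.02, beside -0.01 over all probe sets. Groups were separated for 18 of the 78, 8 lower and 10 higher in GFP+FOG1 cells. Of all probe sets, 10.5% and 9.13% were separated in these directions.

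The ligand list, with the fourth receptor gene Notch4, had a median log2 change of -0.11 over 8 genes. Of the 8 changes 7 were below 0, as were those of 18716 of all 34760 probe sets. Dll4, a ligand of the Delta-like family, was 7.18, 7.22 and 7.13 in GFP cells and 6.93, 7.004 and 7.04 in GFP+FOG1 cells. The groups did not overlap, and their means differed by -0.19 log2 units (SE 0.052, limma adjusted p = 0.265). Notch4 differed by -0.13 log2 units, also with separated groups, and Dll3 by -0.14 with overlap (limma adjusted p of 0.405 and 0.457). The level of Dll3 was below the median of all values. The cleavage list had a median of -0.02 over 9 genes. Adam10, which encodes the main protease of the ligand-dependent cut, was 9.84, 9.83 and 9.77 in GFP cells and 9.88, 9.96 and 10.05 in GFP+FOG1 cells. All GFP+FOG1 arrays were higher, by 0.15 log2 units on average (limma adjusted p = 0.370). Psenen and Aph1c, both of the gamma-secretase complex, had log2 changes of 0.07 and -0.06 (limma adjusted p of 0.573 and 0.652).

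Genes of enzymes that glycosylate Notch had a median log2 change of -0.04 over 8 genes, and 0 of the 8 had separated groups. Gxylt1 had a log2 change of -0.14, Eogt of -0.17 and Pofut1, which adds O-fucose to the receptor, of 0.07 (limma adjusted p of 0.515 to 0.536). Genes of trafficking and turnover also had a median of -0.04, over 14 genes. Mib1, a ubiquitin ligase gene needed for ligand endocytosis, was 8.98, 8.97 and 8.94 in GFP cells and 9.12, 9.10 and 9.09 in GFP+FOG1 cells. Its groups were separated, with a log2 change of 0.14 (limma adjusted p = 0.293). Itch, a ubiquitin ligase gene that acts on Notch, had a log2 change of 0.13 with separated groups (limma adjusted p = 0.378). Numbl, related to the Notch inhibitor gene Numb, had -0.29 with overlapping groups (0.451). Its value was -0.14 without GFP+FOG1 replicate 3 and -0.43 without replicate 1.

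Among nuclear cofactors, with a median log2 change of 0.03 over 17 genes, Tle1 stood apart in size. TLE proteins are the corepressors that HES repressors recruit. Tle1 was 6.76, 6.80 and 6.70 in GFP cells and 7.05, 7.06 and 7.23 in GFP+FOG1 cells. The groups were separated by a gap larger than the spread inside either, and the log2 change was 0.36 (SE 0.064, unadjusted p = 0.000999, limma adjusted p = 0.135). Its mean was below the median of all values, so the change in RNA can be understated. Tle4 and Snw1, the latter of an RBPJ-binding cofactor, differed by 0.10 and 0.09 log2 units with separated groups (limma adjusted p of 0.429 and 0.428).

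The further HES and HEY genes had a median log2 change of -0.12 over 9 genes, and 5 of the 9 lay below the median of all values. Bhlhe40, a related repressor gene, differed by -0.20 log2 units with overlap (limma adjusted p = 0.412). Hes2, at -0.19, and Helt, at -0.11, were dim and had separated groups (limma adjusted p of 0.468 and 0.467). Of the genes known to respond to Notch in lymphocytes, with a median of 0.01 over 13 genes, the interleukin 7 receptor gene Il7r was 11.17, 11.09 and 11.13 in GFP cells and 11.29, 11.35 and 11.36 in GFP+FOG1 cells. Its groups were separated, with a log2 change of 0.20 (limma adjusted p = 0.213). The cyclin gene Ccnd3 had a log2 change of 0.18 with separated groups (0.270), and the T-cell regulator gene Gata3, which was dim, of -0.15 with overlap (0.408). Cr2, the complement receptor gene that NOTCH2 controls in marginal zone B cells, was dim and had a log2 change of 0.08.

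**Figure D3:**
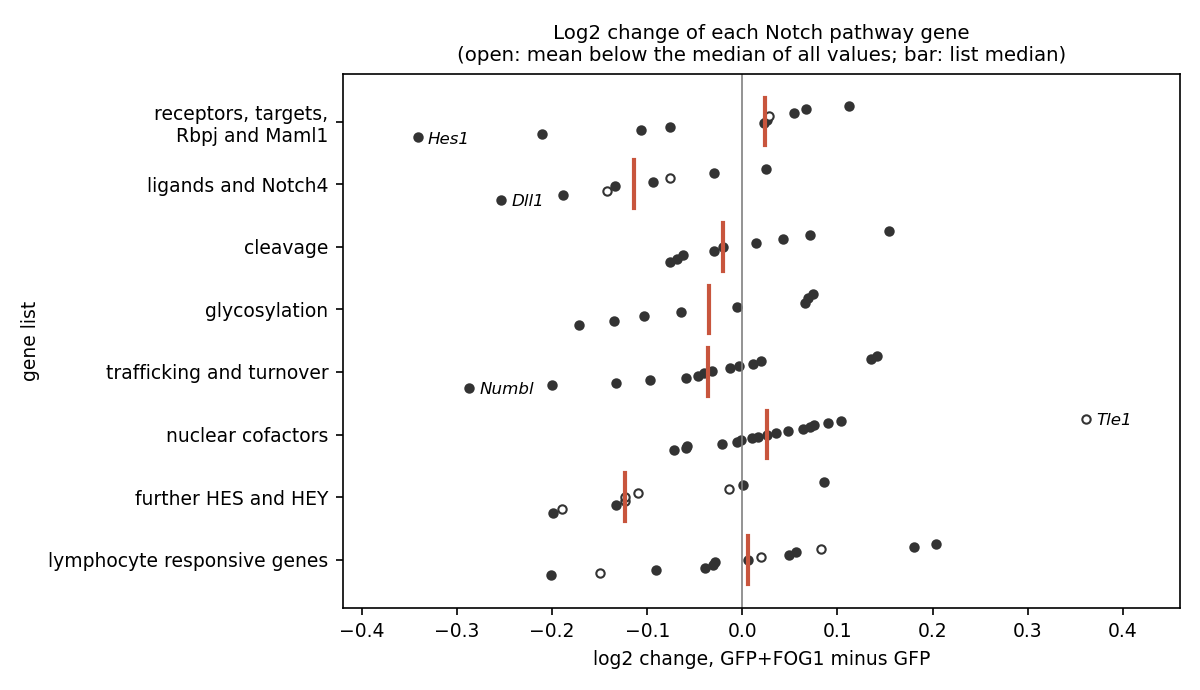
Log2 change, GFP+FOG1 minus GFP (horizontal axis), of each gene of the Notch set and of the 7 further lists (rows), with open points for genes whose mean lies below the median of all values and a red bar at each list median. Hes1 (-0.34) and Tle1 (0.36) lie farthest from 0 and did not pass the test.

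The ligand genes Jag1 and Dll1, and to a smaller extent Notch3, varied among the GFP+FOG1 arrays more than between groups, and 4 of 7 stromal and endothelial markers varied in the same order. These genes were singled out after their values were seen. Jag1 was 7.49, 7.61 and 7.67 in GFP cells and 8.10, 7.57 and 6.81 in GFP+FOG1 cells. Its range within the GFP+FOG1 group was 1.29 log2 units, which 0.199% of all probe sets reached, against a range of 0.18 among the GFP arrays. Dll1 was 10.57, 10.82 and 10.82 in GFP cells and 10.89, 10.47 and 10.09 in GFP+FOG1 cells, a range of 0.79 that 1.99% of probe sets reached. For Notch3 the range was 0.29, reached by 18.2%. In all 3 genes GFP+FOG1 replicate 1 was the highest array and GFP+FOG1 replicate 3 the lowest of its group. GFP replicate 1 was the lowest of the GFP arrays, a trait whose share over all probe sets was not counted. The same order of the GFP+FOG1 arrays was found for 16.9% of all probe sets, for 4 of the 10 Notch genes (Notch2, Notch3, Dtx1 and Rbpj) and for 25 of the 78 further pathway genes. The ranges of Notch2, Dtx1 and Rbpj were 0.19, 0.10 and 0.11, reached by 35.8%, 66.5% and 60.9% of probe sets. The 25 included the cyclin gene Ccnd1, with a range of 0.88 that 1.36% of probe sets reached. Numbl, with a range of 0.58 that 4.72% reached, was also among them. So were Mib1, Snw1 and Dtx2, with ranges of 0.036, 0.028 and 0.022 that 94.1%, 96.4% and 97.8% reached. The order alone therefore does not mark a gene with a large spread. On the first principal component of all probe sets the GFP+FOG1 arrays lay in the order of replicates 1, 2 and 3 (1.15, 17.0 and 24.3). The GFP arrays lay at the far side of replicate 1 there (-16.1 to -11.4). For Jag1 and Dll1, by contrast, the GFP values lay between those of GFP+FOG1 replicates 1 and 3. Whether this component and these genes share a source of variation was not tested.

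The same arrays were highest and lowest for the collagen genes Col1a1, Col1a2 and Col3a1 and for Pdgfrb, the pericyte and fibroblast receptor for platelet-derived growth factor. Pdgfrb was 8.42, 8.54 and 8.65 in GFP cells and 8.97, 8.59 and 7.59 in GFP+FOG1 cells. Col1a1 was 9.53, 9.73 and 9.70 in GFP cells and 9.90, 9.61 and 8.99 in GFP+FOG1 cells. These genes were on a list of 7 stromal and endothelial markers, of which 5 lay at or above the median of all values. The list's average level ran from 8.09 to 8.24 on the GFP arrays and from 7.88 to 8.37 on the GFP+FOG1 arrays, and none of the 7 passed the group test. The other 3 markers, which are endothelial, did not follow this order. Pecam1 was 9.52, 9.54 and 9.64 on the GFP+FOG1 arrays and Cdh5 6.60, 6.61 and 6.71, both highest in replicate 3, and Kdr, dim like Cdh5, was lowest in replicate 2. The cells had been sorted for green fluorescence before the last 4 days of culture, and the labels do not say whether other cells were present in the cultures. The part of stromal transcripts in the Jag1, Dll1 and Notch3 values was not tested, and in RNA from whole cultures fewer cells of a type and less RNA per cell cannot be told apart. With all arrays neither ligand gene passed (limma adjusted p of 0.912 for Jag1 and 0.619 for Dll1). The Jag1 log2 change was -0.09 with all arrays, 0.25 without GFP+FOG1 replicate 3 and -0.40 without replicate 1, and for Dll1 these values were -0.25, -0.06 and -0.46. Hes1 did not follow this order. GFP+FOG1 replicate 3 was its lowest array of that group too, but replicate 2 was its highest. Its range within the GFP+FOG1 group was 0.1506 log2 units, which 47.1% of all probe sets reached. Among the GFP arrays its range was 0.1499. The Hes1 log2 change was -0.31 without GFP+FOG1 replicate 3 and -0.34 without replicate 1.

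**Figure D4:**
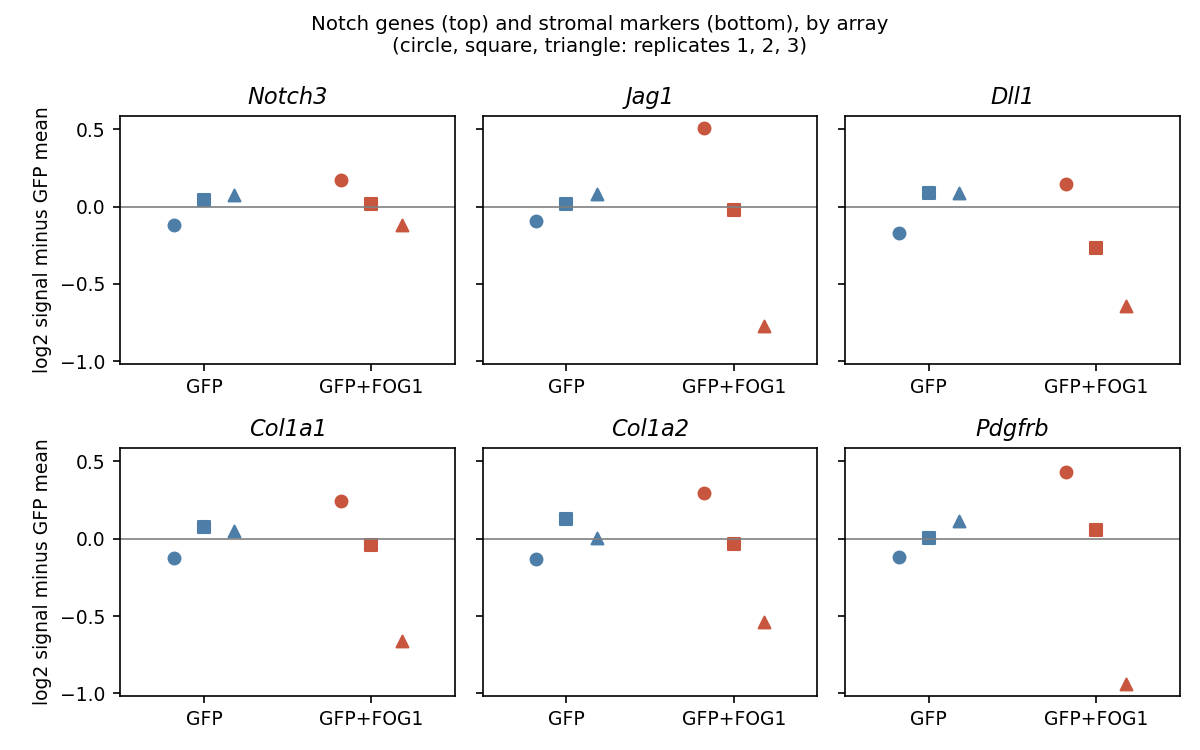
Log2 signal minus the GFP mean (vertical axis) for Notch3, Jag1 and Dll1 (top) and the stromal markers Col1a1, Col1a2 and Pdgfrb (bottom) on each of the 6 arrays, with GFP in blue, GFP+FOG1 in red and symbols for replicates 1 to 3. In all 6 panels GFP+FOG1 replicate 1 is the highest of the GFP+FOG1 arrays and replicate 3 the lowest. The 6 genes were chosen after their values were seen. The endothelial markers Pecam1, Cdh5 and Kdr, which are not shown, did not follow this order.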

How the data were processed

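Total RNA (100 ng per sample) was amplified with a whole-transcript kit and hybridised as biotin-labelled sense-strand cDNA to Affymetrix arrays, per the labels' protocols, with 1 array per sample. The authors deposited log2 values, 1 for each probe set and array. For these values the affy package was used, per the submitters' processing notes, with its steps not given in the sources used here. Their log2 scale was read from the values (3.12 to 14.07, array medians 6.98 to 7.04). A normalization that equalises arrays would conceal any shift common to most genes.

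Sample titles gave the groups and replicate numbers, and named every array a biological replicate. Whether the replicates came from separate infections is not stated. The p-values therefore cover the spread between these samples, which may not include the spread between infections. Probe sets were named through the platform annotation, and a check through Entrez identifiers changed 0 symbols. The test was limma 3.58.1 (R 4.3.3; lmFit, then eBayes, two-sided, with no block or filter), with Benjamini-Hochberg adjustment over all 34760 probe sets. It was also run on simulated data, where every change put in was larger than those of the 10 Notch genes. Recovery of changes as small as theirs was therefore not examined. A gene is represented by its probe set with the highest mean, except in the search for profiles like that of Hes1, which compared single probe sets. From each list the rule named any gene past the threshold and up to 3 with the smallest unadjusted p. Cr2, Jag1, Dll1 and the stromal markers named were singled out after their values were seen. Members and lists were chosen with earlier results of these data known. The 3 arrays in each group limit the precision. Deviations from the group means correlated at -0.07, 0.01 and -0.04 between arrays of the same number, so a shared number was not treated as a pair. Plots used matplotlib 3.10.9 (Python 3.11.15).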

Additional observations from a re-analysis of the deposited data

How the results depend on the processing

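The alternatives were quantile normalization, median centring, no dim probe sets, 1-symbol probe sets alone, the replicate block, a robust variance trend, array weights, each array left out in turn, and averaging a gene's probe sets. None of the 10 Notch genes and none of the 78 further pathway genes passed under any of them (limma). The log2 change of Hes1 ran from -0.38 to -0.30 over these 14 settings, with an adjusted p from 0.0692 (1-symbol probe sets alone) to 0.38. That of Notch2 ran from -0.25 to -0.16, with an adjusted p from 0.185 to 0.565. Among the 10 genes, signs turned only when an array was left out, for Hey1 (-0.0275 to 0.0711) and Notch3 (-0.0517 to 0.0926). Without 1 array the list medians ran from -0.157 to -0.0554 for ligands, -0.135 to -0.0632 for further HES and HEY genes, -0.0655 to -0.0039 for glycosylation, -0.0491 to -0.0066 for trafficking, -0.0384 to 0.0082 for cleavage, 0.0017 to 0.0431 for nuclear cofactors and -0.0045 to 0.0384 for lymphocyte genes. The cleavage median was also above 0 with median centring (0.005), and the lymphocyte median was below 0 with quantile normalization (-0.0185), without dim probe sets (-0.0114) and with array weights (-0.005). The 78 probe sets called over the array became 9 with the replicate block and 17 to 38 without 1 array, where fewer samples are one reason. With the block the Hes1 adjusted p was 0.25, and no call of a Notch gene changed. The best match of an array in the other group was its own number for 0 of 6 arrays. No pseudocount was tried on these log2 values. Dim signals, as for Hey1 and Tle1, can hide or shrink differences.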
